A study of Homo sapiens with 8 samples.

Results

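The secreted growth factors VEGFA, VEGFB, VEGFC, PGF, PDGFA, PDGFB, PDGFC and PDGFD and the co-receptors NRP1 and NRP2 were examined in oral squamous cell carcinoma (OSCC) cells after transfection with a miR-375-3p mimic. All probe sets whose only gene symbol was one of these 10 genes were taken, which gave 41 of the 49386 probe sets on the array and 10 of the 18239 genes with a named probe set. No probe set named one of the 10 genes together with another gene. The 4 cell lines used, Ca9-22, HSC2, HSC3 and SAS-L1, are established lines of human OSCC. Each line was reverse transfected with 20 nM of the miR-375-3p mimic or with 20 nM of the non-targeting mimic miR-NT, and total RNA was collected after 48 h. There were 8 arrays, 4 with the mimic and 4 with miR-NT, that is 1 array per line and condition, so a change within a single line had no replicate. The deposited values are log2 signals, on which a difference of 1 is a 2-fold change.

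The vascular endothelial growth factors VEGFA, VEGFB, VEGFC and PGF are secreted dimers that bind receptor tyrosine kinases of endothelial cells. VEGFA is the main growth factor of blood vessels and VEGFC that of lymphatic vessels. The platelet-derived growth factors PDGFA, PDGFB, PDGFC and PDGFD bind receptor tyrosine kinases of fibroblasts and mural cells, and carcinoma cells are a known source of them in tumor stroma. PDGFC and PDGFD are released in a latent form that proteases have to cleave. The neuropilins NRP1 and NRP2 bind both VEGF ligands and class 3 semaphorins, and they signal together with VEGF receptors or with plexins.

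The mature miR-375-3p is shown because the mimic represents it. Its seed, bases 2 to 8 from the 5′ end, is in capitals, and the sequence is that of RefSeq on GRCh38.p14, where MIR375 encodes it on the minus strand at chr2:219001648-219001669.
hsa-miR-375-3p: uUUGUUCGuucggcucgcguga
The 7 bases that pair with this seed read CGAACAA in a transcript. Transcripts of the 10 genes were not searched for them here.

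PDGFC was the one gene of the 10 with a limma adjusted p under 0.05, and it was lower with the mimic in all 4 lines. In the brightest of its 3 probe sets the log2 signal with the mimic was 6.21 in Ca9-22, 5.94 in HSC2, 6.08 in HSC3 and 6.87 in SAS-L1. With miR-NT it was 7.30 in Ca9-22, 7.18 in HSC2, 7.32 in HSC3 and 7.63 in SAS-L1. Every mimic array lay below every miR-NT array, a pattern that 1.94% of all genes showed in this direction and 1.94% in the other. PDGFC fell by 1.08 ± 0.23 on the log2 scale, or 2.12-fold (SD over lines, n = 4; limma adjusted p = 0.00468). The fall was 2.13-fold in Ca9-22, 2.36-fold in HSC2, 2.36-fold in HSC3 and 1.69-fold in SAS-L1. In a fit that ignored the pairing of arrays by line, PDGFC did not pass (adjusted p = 0.167).
All 3 probe sets of PDGFC fell, and the brightest fell the most. The mean log2 difference was -0.47 ± 0.19 in the second brightest (adjusted p = 0.0227) and -0.49 ± 0.16 in the dimmest (adjusted p = 0.0150; limma over all probe sets, SD over lines, n = 4). In the second brightest probe set the signal with the mimic was 5.52 in Ca9-22, 5.49 in HSC2, 5.67 in HSC3 and 5.84 in SAS-L1, against 6.10 in Ca9-22, 5.93 in HSC2, 6.32 in HSC3 and 6.05 in SAS-L1 with miR-NT. In the dimmest it was 5.25 in Ca9-22, 5.44 in HSC2, 5.27 in HSC3 and 5.78 in SAS-L1 with the mimic, against 5.94 in Ca9-22, 5.82 in HSC2, 5.81 in HSC3 and 6.13 in SAS-L1 with miR-NT. The mimic and miR-NT arrays did not overlap in either probe set, which held for 2.17% of all probe sets in this direction and for 1.85% in the other. With the mean of its 3 probe sets, PDGFC was lower by 0.68 on the log2 scale (adjusted p = 0.00841). The dimmer probe sets did not pass on some sets of 3 lines. Without HSC2 their adjusted p was 0.0861 and 0.0552, and without HSC3 it was 0.0742 and 0.0546. Without Ca9-22, the second brightest did not pass (adjusted p = 0.0778).
Over the 8 arrays, the signals most like that of PDGFC were those of MYH10, a non-muscle myosin heavy chain (Pearson r = 0.986), the centrosomal protein gene CEP57L1 (r = 0.986) and LSM12 (r = 0.982). These were found among 3377 genes with an SD of at least 0.5 over the arrays and are given as a description. The likeness holds the difference between conditions, since MYH10, CEP57L1 and LSM12 had log2 differences of -1.33, -1.07 and -1.21.

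**Figure D1:**
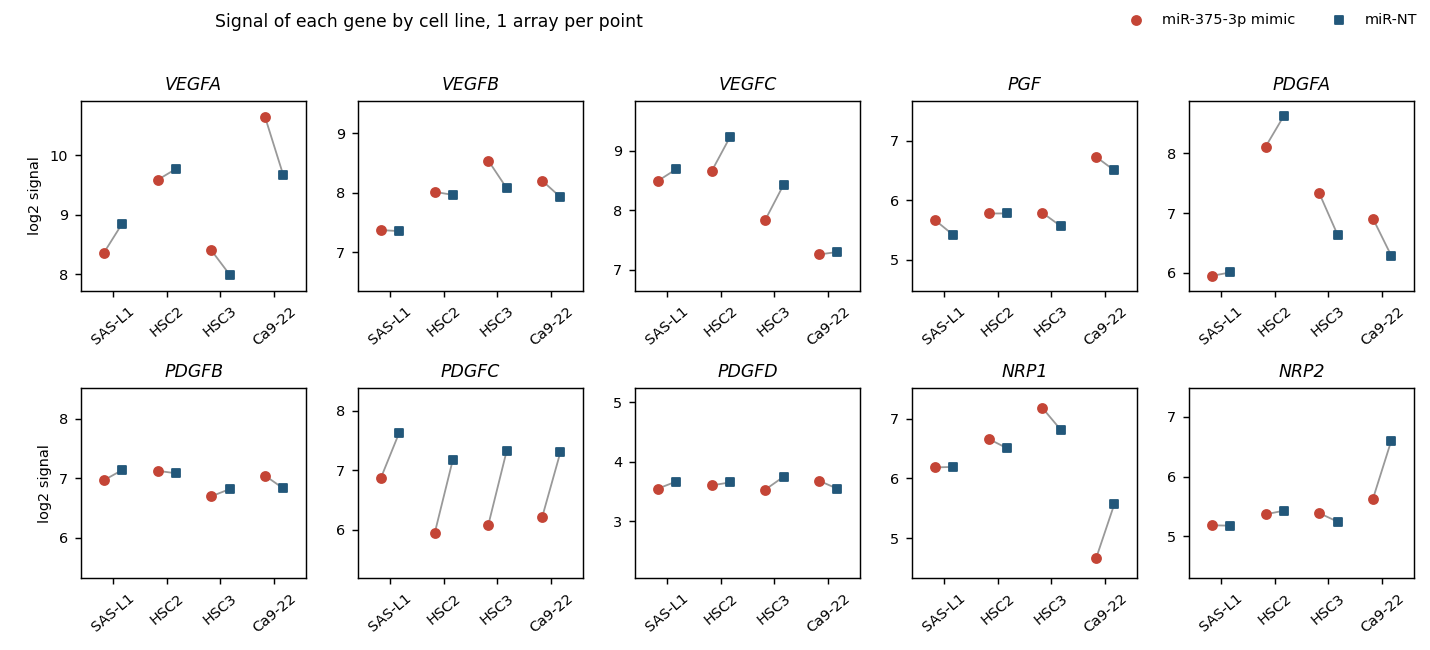
Log2 signal (y axis) of the brightest probe set of each gene in each cell line (x axis), with the mimic (red circles) and miR-NT (blue squares) as 1 array per point and a line joining the arrays of a cell line. Each panel spans the same height on the log2 scale. PDGFC was lower with the mimic in all 4 lines, VEGFA was lower in SAS-L1 and higher in Ca9-22, and NRP1 and NRP2 were lower in Ca9-22.

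Of the 10 genes, 1 fell, none rose and 9 did not pass the test, where 5.19% of all genes fell and 7.36% rose. At an unadjusted p under 0.05, 3 of the 10 genes differed (PDGFC, VEGFC and PGF), against 26.3% of all genes. The 10 differences had a median of -0.04 on the log2 scale, against 0.03 over all genes. At the level of probe sets, 3 of 41 fell, none rose and 38 did not pass, where 5.39% of all probe sets fell and 5.96% rose. All 3 belonged to PDGFC.

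VEGFC had the second largest difference and was lower in each line, but it did not pass the test. Its single probe set gave 7.26 in Ca9-22, 8.65 in HSC2, 7.84 in HSC3 and 8.49 in SAS-L1 with the mimic. With miR-NT it gave 7.30 in Ca9-22, 9.23 in HSC2, 8.43 in HSC3 and 8.69 in SAS-L1. The mimic and miR-NT arrays overlapped. The log2 difference was -0.35 ± 0.27 (SD over lines, n = 4; limma adjusted p = 0.0962), with -0.57 in HSC2 and -0.59 in HSC3 beside -0.20 in SAS-L1 and -0.04 in Ca9-22. Its adjusted p lay between 0.0702 and 0.298 with 1 line left out. VEGFC and PDGFC were lower in each of the 4 lines, 2 of the 10 genes, where 11.9% of all genes were.
VEGFA moved in opposite directions in different lines. Its brightest probe set gave 10.64 in Ca9-22, 9.58 in HSC2, 8.40 in HSC3 and 8.36 in SAS-L1 with the mimic, against 9.66 in Ca9-22, 9.77 in HSC2, 7.99 in HSC3 and 8.85 in SAS-L1 with miR-NT. The mimic was thus lower by 0.49 in SAS-L1 and by 0.18 in HSC2, and higher by 0.41 in HSC3 and by 0.98 in Ca9-22 on the log2 scale. The mean difference of 0.18 ± 0.65 did not pass the test (SD over lines, n = 4; limma adjusted p = 0.728), and it was -0.09 without Ca9-22. With 1 pair of arrays per line, the difference between lines in this response was not tested.
The 10 probe sets of VEGFA, which read 1 gene on the same arrays, showed the same split. In SAS-L1, 9 of the 10 were lower with the mimic (median -0.37), and in HSC2 8 of the 10 were lower (median -0.17). In HSC3, 9 of the 10 were higher (median 0.31), and in Ca9-22 all 10 were higher, by 0.13 to 1.12 (median 0.64). None of the 10 passed the test over the 4 lines, with adjusted p from 0.604 to 0.983.
VEGFB, a VEGF family ligand of FLT1, was higher in each line and did not pass. Its probe set gave 8.21 in Ca9-22, 8.02 in HSC2, 8.54 in HSC3 and 7.38 in SAS-L1 with the mimic, against 7.93 in Ca9-22, 7.97 in HSC2, 8.08 in HSC3 and 7.36 in SAS-L1 with miR-NT. The difference exceeded 0.1 only in HSC3 (0.46) and Ca9-22 (0.28), and its mean was 0.20 ± 0.21 (limma adjusted p = 0.229). It was the only gene of the 10 that was higher in each line, where 20.9% of all genes were.
PGF, the placental growth factor and likewise a ligand of FLT1, gave 6.73 in Ca9-22, 5.78 in HSC2, 5.79 in HSC3 and 5.67 in SAS-L1 with the mimic, against 6.50 in Ca9-22, 5.78 in HSC2, 5.57 in HSC3 and 5.42 in SAS-L1 with miR-NT. It was higher by 0.22 to 0.25 in SAS-L1, HSC3 and Ca9-22 and level in HSC2. The mean difference of 0.17 ± 0.12 did not pass (limma adjusted p = 0.167).

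PDGFA, whose dimer binds the receptor PDGFRA, also differed in direction between lines. Its brightest probe set gave 6.90 in Ca9-22, 8.11 in HSC2, 7.33 in HSC3 and 5.95 in SAS-L1 with the mimic, against 6.28 in Ca9-22, 8.63 in HSC2, 6.64 in HSC3 and 6.002 in SAS-L1 with miR-NT. The log2 difference was 0.62 in Ca9-22, -0.52 in HSC2, 0.70 in HSC3 and -0.06 in SAS-L1, with a mean of 0.19 ± 0.58 (SD over lines, n = 4; limma adjusted p = 0.676). All 4 probe sets of PDGFA were lower in HSC2 (-0.73 to -0.11) and higher in Ca9-22 (0.20 to 0.62), and this difference between lines was not tested either.
PDGFB, which binds both PDGF receptors, did not pass either. Its brightest probe set gave 7.04 in Ca9-22, 7.12 in HSC2, 6.70 in HSC3 and 6.97 in SAS-L1 with the mimic, against 6.83 in Ca9-22, 7.08 in HSC2, 6.82 in HSC3 and 7.14 in SAS-L1 with miR-NT. The mean difference was -0.01 ± 0.17 (limma adjusted p = 0.968), and the means of its other probe sets were 0.07 and 0.19.
PDGFD, a ligand of PDGFRB, was dim in all lines. Its brightest probe set lay between 3.53 and 3.68 with the mimic and between 3.55 and 3.75 with miR-NT. These values lie below 3.90, the lower quartile of all probe sets in miR-NT cells. Its difference of -0.06 ± 0.15 did not pass (limma adjusted p = 0.696).

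The brightest probe sets of both neuropilins were lower with the mimic in Ca9-22, and that of NRP1 was higher in HSC3. The brightest probe set of NRP1 gave 4.66 in Ca9-22, 6.67 in HSC2, 7.19 in HSC3 and 6.19 in SAS-L1 with the mimic, against 5.57 in Ca9-22, 6.51 in HSC2, 6.82 in HSC3 and 6.19 in SAS-L1 with miR-NT. That of NRP2 gave 5.63 in Ca9-22, 5.37 in HSC2, 5.39 in HSC3 and 5.18 in SAS-L1 with the mimic, against 6.60 in Ca9-22, 5.43 in HSC2, 5.24 in HSC3 and 5.18 in SAS-L1 with miR-NT. In Ca9-22 the log2 difference was -0.91 for NRP1 and -0.97 for NRP2, which is 1.88-fold and 1.96-fold lower on 1 pair of arrays. In the other lines it lay between -0.01 and 0.37 for NRP1 and between -0.06 and 0.14 for NRP2. Over the 4 lines the means were -0.10 ± 0.56 for NRP1 (SD over lines, n = 4; limma adjusted p = 0.837) and -0.22 ± 0.51 for NRP2 (limma adjusted p = 0.552). Without Ca9-22 they were 0.17 and 0.03.
The probe sets of NRP2 ran alike in Ca9-22, where all 9 were lower with the mimic, by 0.09 to 0.97 on the log2 scale with a median of -0.30. Most of them were dim. By the mean of the miR-NT arrays the brightest lay at 5.61 and the second brightest at 5.20. The others lay at 3.75 to 4.47, below 5.02, the median of all probe sets in miR-NT cells. Of the 9, 6 were lower in SAS-L1, 5 in HSC2 and 3 in HSC3. The probe sets of NRP1 did not run alike. In Ca9-22, 4 of 6 were lower and the median was -0.09, and the second brightest had a difference of -0.05 there. In HSC3 the brightest probe set of NRP1 was higher by 0.37 and the second brightest lower by 0.37, so the response of NRP1 depended on the probe set read.

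**Figure D2:**
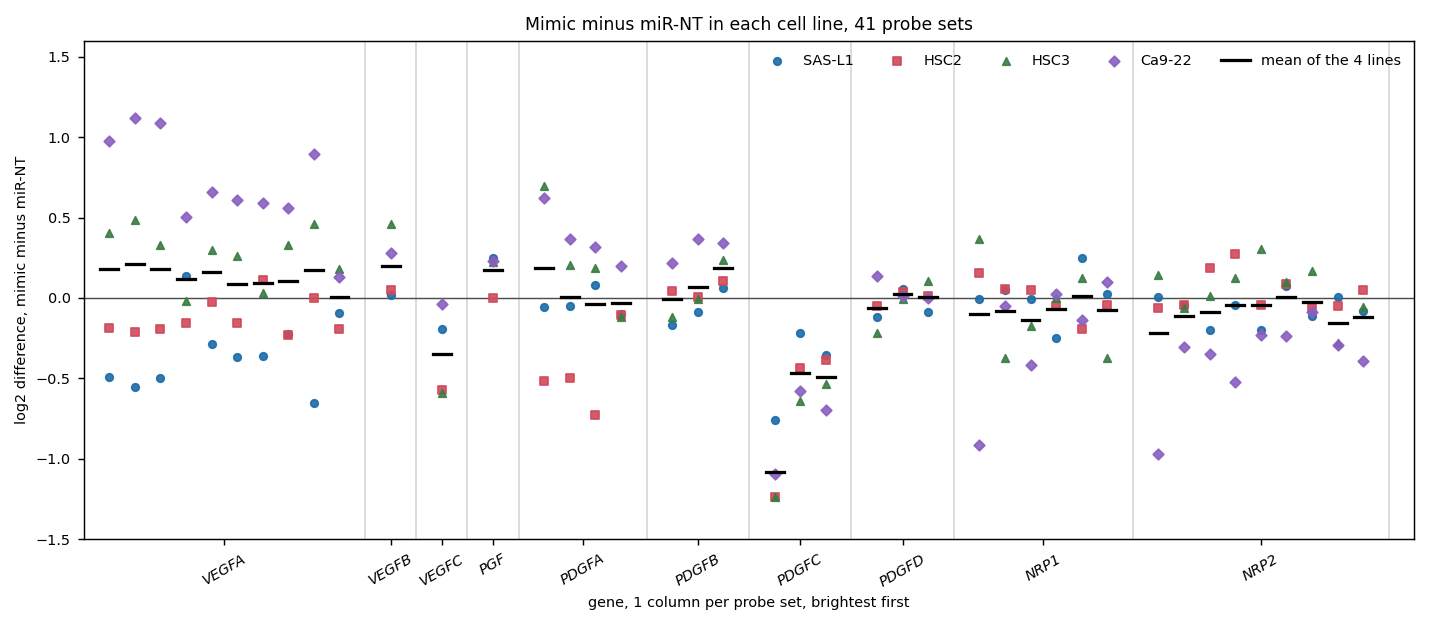
Log2 difference of the mimic minus miR-NT (y axis) for each of the 41 probe sets (x axis, grouped by gene, brightest first), with 1 point per cell line and a black bar at the mean of the 4 lines. All points of PDGFC lie below 0, those of VEGFA run from SAS-L1 at the bottom to Ca9-22 at the top in most probe sets, and all Ca9-22 points of NRP2 lie below 0.

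Within single lines, read from the brightest probe set of each gene, PDGFC was the only one of the 10 genes that was more than 2-fold lower, in HSC2, HSC3 and Ca9-22, and none was more than 2-fold higher. In Ca9-22 the brightest probe set of VEGFA was 1.97-fold higher, and the next brightest of its probe sets were 2.17-fold and 2.12-fold higher. Over all genes, 2.02% were more than 2-fold lower in Ca9-22, 1.17% in HSC2, 2.20% in HSC3 and 0.587% in SAS-L1, and 0.938% in Ca9-22, 0.406% in HSC2, 1.37% in HSC3 and 0.367% in SAS-L1 were more than 2-fold higher. The median difference of the 10 genes was 0.18 in Ca9-22, -0.06 in HSC2, 0.18 in HSC3 and -0.09 in SAS-L1. Over all genes the median was 0.05 in Ca9-22, 0.02 in HSC2, 0.04 in HSC3 and 0.01 in SAS-L1. In Ca9-22 the 10 genes ran from -1.09 (PDGFC) to 0.98 (VEGFA), and in SAS-L1 from -0.76 (PDGFC) to 0.25 (PGF). With array medians subtracted, NRP2 also passed 2-fold in Ca9-22, and after averaging over probe sets none of the 10 genes did in any line.

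Most of these genes had different levels in different lines. By an F test over the 4 lines in the same limma fit, 7 of the 10 genes differed between lines (VEGFA, VEGFB, VEGFC, PGF, PDGFA, PDGFC and NRP1), where 42.7% of all genes did. This test takes both arrays of a line and assumes a like shift with the mimic in each, so its line differences are those of the mean of both arrays. The p-values given below beside miR-NT levels are those of this mean, not of the miR-NT arrays alone. Pairs of lines were compared in 6 contrasts, each adjusted over all genes, in which 26.0% of all genes differed between SAS-L1 and HSC2, 23.0% between SAS-L1 and HSC3, 25.5% between SAS-L1 and Ca9-22, 22.0% between HSC2 and HSC3, 23.0% between HSC2 and Ca9-22 and 27.6% between HSC3 and Ca9-22.
In miR-NT cells, PDGFA had the widest range, from 8.63 in HSC2 through 6.64 in HSC3 and 6.28 in Ca9-22 to 6.002 in SAS-L1, which is 6.18-fold between the ends. HSC2 stood above HSC3 (limma adjusted p = 0.0193), while HSC3 and Ca9-22 (0.398) and Ca9-22 and SAS-L1 (0.202) did not differ beyond their spread.
VEGFC ranged over 3.80-fold, from 9.23 in HSC2 through 8.69 in SAS-L1 and 8.43 in HSC3 to 7.30 in Ca9-22. Ca9-22 stood below its neighbour HSC3 (limma adjusted p = 0.00895), and the steps from HSC2 to SAS-L1 (0.166) and from SAS-L1 to HSC3 (0.0886) did not pass. This order of lines was the same with the mimic.
VEGFA ranged over 3.42-fold, from 9.77 in HSC2 through 9.66 in Ca9-22 and 8.85 in SAS-L1 to 7.99 in HSC3. Of the steps between neighbours, that between Ca9-22 and SAS-L1 passed (limma adjusted p = 0.0173). HSC2 and Ca9-22 (0.406) and SAS-L1 and HSC3 (0.473) did not differ beyond their spread. The unlike VEGFA responses of the lines enter these tests. Over both arrays, SAS-L1 minus Ca9-22 was -1.54 and HSC2 minus Ca9-22 was -0.47, although HSC2 was the higher of these 2 with miR-NT. With the mimic, Ca9-22 was the highest line and SAS-L1 the lowest.
PGF was highest in Ca9-22, at 6.50 against 5.78 in HSC2, 5.57 in HSC3 and 5.42 in SAS-L1. The step from Ca9-22 to HSC2 passed (limma adjusted p = 0.00217) and the others did not (0.548 and 0.409). Without Ca9-22 the lines no longer differed (F test, adjusted p = 0.276).
VEGFB was lowest in SAS-L1, at 7.36 against 7.93 in Ca9-22 (limma adjusted p = 0.00992), 7.97 in HSC2 and 8.08 in HSC3, and the upper neighbours did not differ (0.765 and 0.139). Without SAS-L1 the lines did not differ (F test, adjusted p = 0.203).
NRP1 was lowest in Ca9-22, at 5.57 against 6.19 in SAS-L1 (limma adjusted p = 0.0379), 6.51 in HSC2 and 6.82 in HSC3, whose steps did not pass (0.393 and 0.382). The fall of this NRP1 probe set with the mimic in Ca9-22 enters the test, in which SAS-L1 minus Ca9-22 was 1.08. NRP2 was highest in Ca9-22, at 6.60 against 5.43 in HSC2, 5.24 in HSC3 and 5.18 in SAS-L1, but did not pass the F test (adjusted p = 0.0845). Of its pairs of lines, only SAS-L1 and Ca9-22 differed (SAS-L1 minus Ca9-22 -0.94, limma adjusted p = 0.0442). The fall of this NRP2 probe set with the mimic in Ca9-22 enters these tests too. With the mimic NRP2 was 5.63 in Ca9-22, against 5.18 to 5.43 in the miR-NT arrays of the other lines.
PDGFC had a narrow range of 1.36-fold, with 7.63 in SAS-L1 above 7.32 in HSC3, 7.30 in Ca9-22 and 7.18 in HSC2. SAS-L1 stood above HSC3 (limma adjusted p = 0.0325), and the other neighbours did not differ (0.830 and 0.408). The smaller fall of PDGFC in SAS-L1 enters this test, and the lines did not pass without SAS-L1 (F test, adjusted p = 0.325), without HSC2 (0.0589) or with the mean of the probe sets (0.0671). The order of lines also depended on the PDGFC probe set read. With miR-NT, SAS-L1 (6.05) lay below HSC3 (6.32) and Ca9-22 (6.10) in the second brightest. In the dimmest, SAS-L1 was again the highest (6.13). PDGFB ranged over 1.25-fold (F test, adjusted p = 0.155) and PDGFD over 1.15-fold (adjusted p = 0.992).

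**Figure D3:**
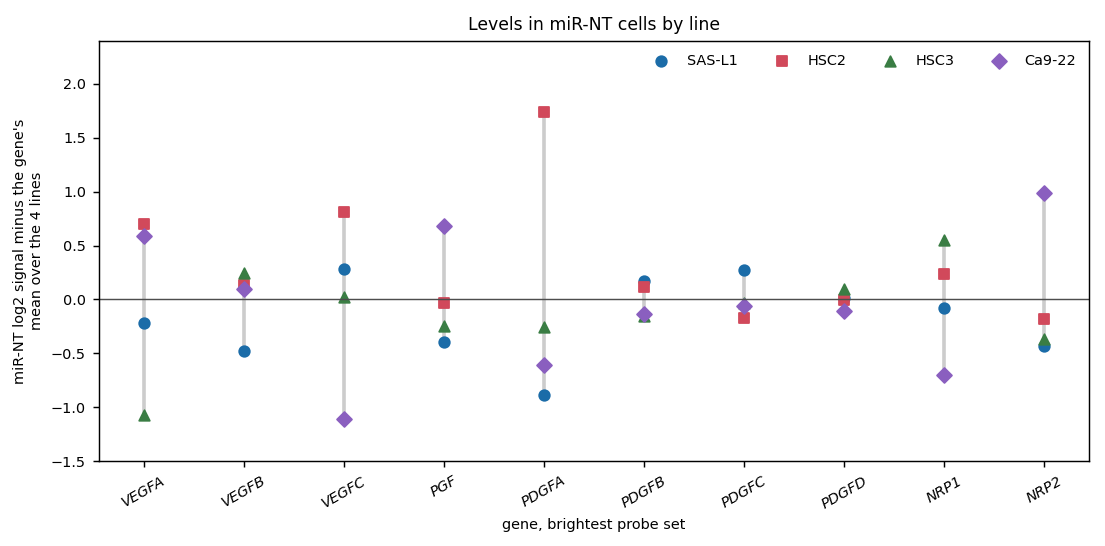
Log2 signal in miR-NT cells minus the gene's mean over the 4 lines (y axis) for the brightest probe set of each gene (x axis), with 1 array per point and a grey bar over the range. HSC2 stands high for PDGFA and VEGFC, Ca9-22 is high for PGF and NRP2 and low for VEGFC and NRP1, and PDGFB, PDGFC and PDGFD lie close together.

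None of the receptors of these ligands passed the test. FLT1, KDR and FLT4 (VEGF receptors), PDGFRA and PDGFRB (PDGF receptors) and VEGFD, a further lymphatic ligand, gave 0 calls among 6 genes. Their mean log2 signals with the mimic were 4.11 for FLT1, 4.83 for KDR, 5.12 for FLT4, 4.54 for PDGFRA, 3.78 for PDGFRB and 4.62 for VEGFD. With miR-NT they were 4.14 for FLT1, 4.75 for KDR, 5.04 for FLT4, 4.64 for PDGFRA, 3.82 for PDGFRB and 4.51 for VEGFD. Of the 6, 5 lay below 5.02, the median of all probe sets in miR-NT cells, and 1 (PDGFRB) lay below the lower quartile. The smallest adjusted p was 0.509, for VEGFD, and the median difference of the list was 0.03, that of all genes.
Among 12 class 3 semaphorins and plexins, the partners of the neuropilins, 2 fell and none rose, with a median log2 difference of -0.11. Over all genes, 5.19% fell and 7.36% rose, and these shares stand beside the counts of each gene list here. SEMA3C, a secreted semaphorin that binds neuropilins, fell in all 4 lines. It gave 4.98 in Ca9-22, 8.74 in HSC2, 8.11 in HSC3 and 8.21 in SAS-L1 with the mimic, against 7.91 in Ca9-22, 10.28 in HSC2, 9.82 in HSC3 and 9.70 in SAS-L1 with miR-NT. The fall was 3.78-fold, with a log2 difference of -1.92 ± 0.68 (SD over lines, n = 4; limma adjusted p = 0.00842), and all 6 probe sets of SEMA3C passed as lower. It was largest in Ca9-22, at -2.93, beside -1.49 in SAS-L1, -1.54 in HSC2 and -1.71 in HSC3. PLXNA1, a plexin that signals with NRP1, fell 1.48-fold (log2 difference -0.56 ± 0.30, adjusted p = 0.0305), a call lost without SAS-L1 (0.0683), HSC2 (0.0936) or Ca9-22 (0.102) and when its probe sets were averaged (0.0814). With probe sets averaged, PLXNA2 passed as higher (log2 difference 0.22, adjusted p = 0.0378). SEMA3A, the semaphorin that acts through NRP1, had -0.48 ± 0.52 and did not pass (adjusted p = 0.170), with -1.22 in Ca9-22.
Of 10 genes that process the ligands, 1 fell and 1 rose. FURIN, a protease that cleaves the precursors of VEGFC, PDGFA and PDGFB, was 1.28-fold higher (log2 difference 0.36 ± 0.17, limma adjusted p = 0.0365). CCBE1, which aids the cleavage of VEGFC, was 1.38-fold lower (-0.46 ± 0.25, adjusted p = 0.0381). CCBE1 did not pass without SAS-L1 (0.0561), HSC2 (0.146), HSC3 (0.0943) or Ca9-22 (0.0588), nor with the mean of its probe sets (0.0976). FURIN did not pass without HSC2 (0.111), HSC3 (0.0993) or Ca9-22 (0.101), nor with the other variance model (0.0560). PLAT, a protease known to activate PDGFC, had a log2 difference of 0.29 ± 0.63 (adjusted p = 0.510). PLAU and ST14, proteases known to activate PDGFD, had -0.37 ± 0.59 (0.354) and 0.54 ± 0.52 (0.127).
Hypoxia-inducible factors (HIF) are known inducers of VEGFA. Of 8 HIF factors and oxygen sensors none passed the test. HIF1A had the smallest p, at -0.28 ± 0.19 on the log2 scale (limma adjusted p = 0.0910). Of 11 measured HIF target genes, 1 fell and none rose, with a median of -0.04. This was the glucose transporter SLC2A1, which was 1.57-fold lower (-0.65 ± 0.41, adjusted p = 0.0441) and did not pass without SAS-L1 (0.115), HSC2 (0.159) or Ca9-22 (0.118) or when its probe sets were averaged (0.0733). Of the 3 probe sets of KDM3A, 1 passed as higher (0.46, adjusted p = 0.0361 over all probe sets), but not the brightest.
Of 12 other secreted factors that act on vessels, 2 fell and 1 rose, with a median of 0.01. THBS1, an inhibitor of angiogenesis, was 3.05-fold lower and fell in 4 of its 5 probe sets. It gave 7.78 in Ca9-22, 9.19 in HSC2, 8.87 in HSC3 and 10.40 in SAS-L1 with the mimic, against 9.73 in Ca9-22, 10.28 in HSC2, 11.28 in HSC3 and 11.37 in SAS-L1 with miR-NT (log2 difference -1.61 ± 0.69, SD over lines, n = 4; limma adjusted p = 0.0135). The metalloprotease ADAMTS1, another inhibitor of angiogenesis, was 2.18-fold lower (-1.12 ± 0.78, adjusted p = 0.0486). The chemokine CXCL8 was 1.72-fold higher (0.79 ± 0.52, adjusted p = 0.0457). THBS1 did not pass without Ca9-22 (adjusted p = 0.0517), nor did ADAMTS1 without HSC2 (0.149) or Ca9-22 (0.117), or CXCL8 without SAS-L1 (0.124), HSC2 (0.123) or Ca9-22 (0.135). With array medians subtracted, ADAMTS1 (0.0506) and CXCL8 (0.0544) did not pass, nor did CXCL8 when its probe sets were averaged (0.0607).
Of 10 measured adaptors and effectors of these receptors, PIK3R1, a regulatory subunit of PI3K, rose and the others did not pass, with a median of -0.08. PIK3R1 was 1.36-fold higher (0.45 ± 0.19, limma adjusted p = 0.0236), but its adjusted p was 0.0538 to 0.0693 with any 1 line left out and 0.198 when its 8 probe sets were averaged. Of the 4 probe sets of SHC1, 1 passed as lower (-0.38, adjusted p = 0.0372 over all probe sets), but not the brightest.

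**Figure D4:**
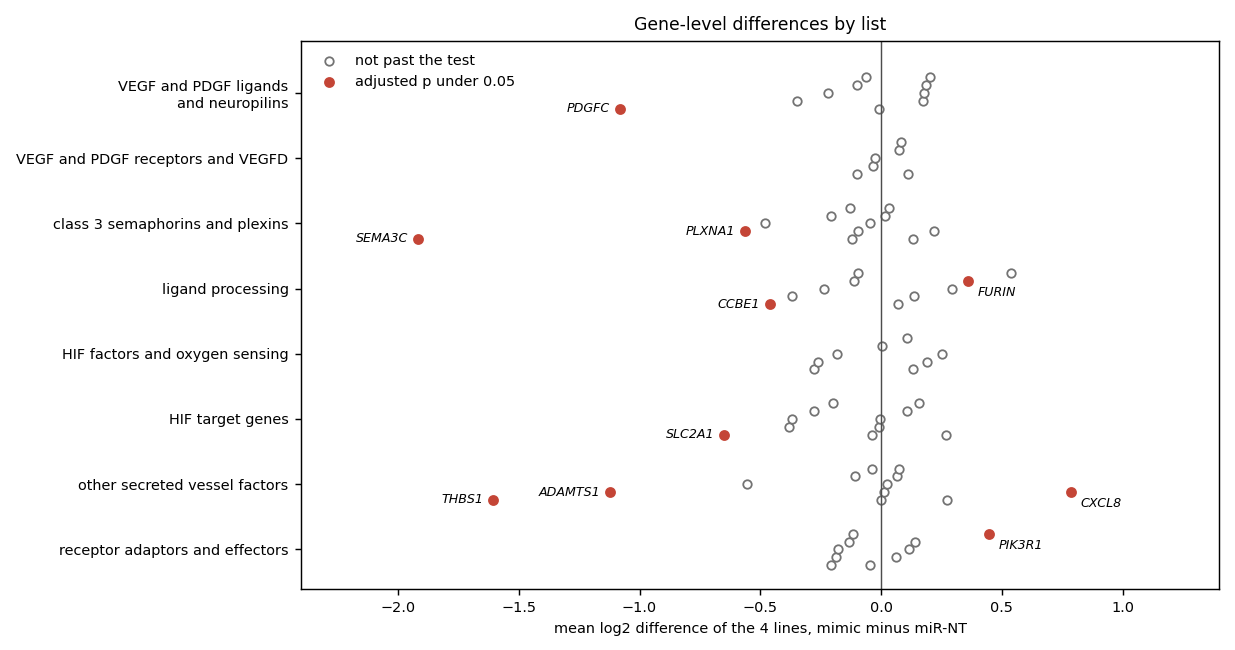
Mean log2 difference of the 4 lines, mimic minus miR-NT (x axis), for the brightest probe set of each gene by list (y axis), with filled points where the limma adjusted p was under 0.05. PDGFC, SEMA3C, PLXNA1, CCBE1, SLC2A1, THBS1 and ADAMTS1 lie to the left as lower, and FURIN, CXCL8 and PIK3R1 to the right as higher.

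By the mean of the 4 miR-NT arrays, none of the 6 measured squamous epithelial markers lay below the median of all probe sets, 5.02. In single lines KRT14 did, at 4.61 in SAS-L1 and 4.28 in Ca9-22 with miR-NT. The summed log2 signal of the 6 markers was 49.4 to 62.5 with the mimic and 53.8 to 64.1 with miR-NT, and KRT5 (3.32-fold) and SFN (1.35-fold) fell. None of the 8 endothelial, 3 lymphatic endothelial, 8 fibroblast and mural, and 5 leukocyte and platelet markers passed the test. The sums were 36.4 to 37.2 with the mimic and 36.0 to 37.5 with miR-NT for the endothelial markers, and 32.7 to 33.5 with the mimic and 32.6 to 33.7 with miR-NT for the fibroblast and mural markers. They were 14.8 to 15.1 with the mimic and 14.64 to 14.895 with miR-NT for the lymphatic markers, and 21.4 to 21.8 with the mimic and 21.5 to 21.8 with miR-NT for the leukocyte and platelet markers. By the mean of the miR-NT arrays, all 8 fibroblast and mural markers and 5 of the 8 endothelial markers lay below the median of all probe sets. So did 1 of the 3 lymphatic endothelial markers and 4 of the 5 leukocyte and platelet markers. CD68, the other leukocyte marker, was at 6.36. Array medians were 4.96 to 5.00.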

How the data were processed

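The authors labeled total RNA, hybridized it to Affymetrix Human Genome U219 arrays and deposited log2 signals, computed by the robust multichip average (RMA; background correction, normalization and summary of probe sets) in GeneSpring GX. The submitters' processing notes also name RMA. Scanner files were not used, so the background correction was not varied. Symbols of the platform annotation were updated through gene identifiers of RefSeq (GRCh38.p14), which matched 45178 of 45259 probe sets with 1 symbol. A further 1327 had several symbols and 2800 had none, and these entered no gene. A gene was read from its brightest probe set, by the mean of all 8 arrays. The mimic was compared with miR-NT in R 4.3.3 with limma 3.58.1 (lmFit, eBayes), with the cell line blocked and Benjamini-Hochberg adjusted p computed over 18239 genes, or over 45259 probe sets, at 0.05. The pairing by line is given by the labels. Deviations from the condition means correlated at 0.836 to 0.886 within lines and at -0.107 or less between lines. Folds are 2 to the power of the log2 difference. Nothing in the labels tells how many cultures lie behind an array, and the 4 pairs limit the precision.

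The 10 genes, the 7 gene lists and the marker lists were chosen with earlier results of these data known. Of the genes listed, CA9, CRK, GIPC1, KRT6A, KRT17 and TP63 were not analysed here. The text names all 10 genes, up to 4 genes of each list past the threshold with the smallest p or else the one with the smallest p, the receptors, and the 3 genes most like a gene that passed. SEMA3A, PLXNA2, PLAT, PLAU, ST14, KDM3A, SHC1 and the markers KRT14 and CD68 were named outside this rule, after their values were seen. Alternatives were no block, array medians subtracted, quantile normalization, the mean of probe sets and any probe set. Further ones were 3135 dim genes left out, another variance model, each line left out, a 1.5-fold threshold and an unpaired Student's t-test. The fit was tested on simulated data.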

Additional observations from a re-analysis of the deposited data

Results flagged for a closer look

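For each of the 41 probe sets, the mimic levels, the miR-NT levels and the differences of the 4 lines were searched for a line far from the others, by the gap to the nearest line as a share of the range, against the critical value of Dixon for 4 values. Of 123 such groups, 9 passed, where chance gives about 6.15. Of the 9, 6 were Ca9-22 in probe sets of NRP2. In the sixth brightest of these, Ca9-22 stood apart with the mimic (4.43, gap 0.924), with miR-NT (4.66, gap 0.968) and in the difference (-0.24, gap 0.916). Ca9-22 also stood apart in the difference of the second brightest (-0.30, gap 0.924), in the mimic level of the third (4.60, gap 0.905) and in the miR-NT level of the fourth (5.199, gap 0.944). For PGF, Ca9-22 was high with the mimic (6.73, gap 0.885) and HSC2 stood apart in the difference (-0.0012, gap 0.894). In the dimmest probe set of PDGFA, Ca9-22 stood apart in the difference (0.20, gap 0.934). Probe sets of a gene share its arrays, so their gaps are not independent.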

How the results depend on the processing

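PDGFC was the 1 gene called lower in every alternative run except the fits that ignored the pairing. When the replicate block (the cell line) was dropped, limma called 0 of the 10 genes and 0 of the 41 probe sets lower (PDGFC, adjusted p = 0.167), with 1 of the 10 genes at an unadjusted p under 0.05 and 6 genes lower among all genes. The 9 genes of the pathway lists that had passed did not pass either. The methods name Student's t-test for comparisons of 2 groups in general, not for the arrays in particular. Run here unpaired and with Benjamini-Hochberg adjustment, it also called 0 genes and 0 probe sets, here and among all genes (530 lower and 616 higher at an unadjusted p under 0.05). With 1 line left out, 1 to 3 probe sets were called lower, and 1 was with the 1.5-fold threshold. The adjusted p of PDGFC was 0.00546 to 0.0329 with 1 line left out, and its log2 difference -1.19 to -1.03. With the mean of probe sets, 0 genes were more than 2-fold lower in HSC2, HSC3 and Ca9-22, and with array medians subtracted 2 were in Ca9-22. Signs turned for genes that did not pass the test. PDGFB was 0.082 with the mean of probe sets, 0.19 in its most changed probe set and -0.083 to 0.046 with 1 line left out. VEGFA ranged from -0.089 to 0.40, NRP1 from -0.25 to 0.17 and NRP2 from -0.34 to 0.030 with 1 line left out. The lowest value of VEGFA and the highest of both neuropilins came without Ca9-22. That line had the highest difference of VEGFA (0.98) and the lowest of NRP1 (-0.91) and NRP2 (-0.97). Why Ca9-22 differed from the other lines was not tested. The number of genes that differed between lines was 5 to 7. PDGFD has no value with dim genes left out.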
